A study of Mus musculus with 16 samples.

Results

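The genes described here encode the enzymes of glycolysis, the monocarboxylate transporters that export its lactate, the enzymes of the pentose phosphate pathway, and the proteins that bring pyruvate into the mitochondrion and oxidise it. The list holds 36 gene symbols, 17 of glycolysis, 2 of monocarboxylate export, 7 of the pentose phosphate pathway and 10 of pyruvate entry and oxidation. Each gene is read from its probe set with the highest mean over the 16 arrays, and 29 of the 36 have a probe set annotated to 1 gene only. The other 7, Gpi1, Eno1, G6pdx, Rpe, Dld, Mpc2 and Pgam1, were not analysed here. For Pgam1 the probe set also lists a pseudogene. Of the 29, 27 passed the filter on low values (log2 above 5 on at least 4 arrays) among 8139 of 17097 genes. Slc16a3, an exporter of lactate, at 2.79 to 3.35, and Pdk2, a pyruvate dehydrogenase kinase, at 3.20 to 3.74, lay near background on every array and were not tested.

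The cells were T cells from spleens of 6-week-old, otherwise untreated NOD/LtJ mice, a strain that develops autoimmune diabetes. WT mice carried Tg(Foxp3-EGFP/cre)1aJbs, a transgene that expresses a fusion of green fluorescent protein and Cre recombinase under Foxp3 control, and KI mice carried Foxp3tm2Ayr, a knock-in allele that puts green fluorescent protein at Foxp3 itself. From each genotype, 4 arrays are labelled as regulatory T cells (Tregs) and 4 as conventional T cells (Tconv). All 4 groups thus carry a fluorescent reporter of Foxp3, and no group without one was analysed here. The protocol in the labels gives the gate CD3+CD4+GFP- for every sample, so the gate used for the Tregs is unclear. Foxp3, the transcription factor that defines Tregs, was at 9.39 to 10.16 on the 8 Treg arrays and at 3.57 to 4.96 on the 8 Tconv arrays. Il2ra, the high-affinity subunit of the interleukin-2 receptor, was at 9.13 to 9.90 and 3.39 to 4.13. All 10 genes of the Treg and CD4 T cell identity list had means above 5 in both Treg groups, and 8 of 10 did in both Tconv groups. Nothing in the labels tells whether replicate arrays stem from different animals, so p-values measure only the spread between these arrays, which may be technical.

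Glycolysis splits glucose into pyruvate and yields a little ATP without oxygen. The pentose phosphate pathway leaves it early and makes NADPH and the ribose of nucleotides. Pyruvate is either reduced to lactate or carried into mitochondria and oxidised by pyruvate dehydrogenase, an enzyme that pyruvate dehydrogenase kinases switch off. Activated effector T cells are known for high glycolysis, and Tregs are known to rely more on mitochondrial oxidation, with Foxp3 and hypoxia-inducible factor (HIF) among the factors linked to the balance. Many glycolysis genes are known targets of HIF, which binds a short core motif in their promoters.

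The promoters of 5 members are printed because they cover the different patterns in these arrays. Hk2, Tpi1 and Eno3 were higher in Tregs, Pdk1 was lower, and Ldha did not pass the test in any comparison. Each is the 250 bases before the gene's most upstream listed start, 5′ to 3′ on the gene's own strand, from RefSeq on the GRCm38.p6 build. Capitals mark ACGTG, a form of the HIF core motif, on either strand, so ACGTG or CACGT, and a full CACGTG holds both. Other forms of the core were not searched for.
Hk2, chr6:82774455-82774704, minus strand: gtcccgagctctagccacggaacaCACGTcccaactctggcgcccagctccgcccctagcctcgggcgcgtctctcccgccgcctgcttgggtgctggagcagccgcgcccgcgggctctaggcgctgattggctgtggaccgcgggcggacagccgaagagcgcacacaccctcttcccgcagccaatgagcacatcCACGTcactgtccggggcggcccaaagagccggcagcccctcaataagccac
Ldha, chr7:46845554-46845803, plus strand: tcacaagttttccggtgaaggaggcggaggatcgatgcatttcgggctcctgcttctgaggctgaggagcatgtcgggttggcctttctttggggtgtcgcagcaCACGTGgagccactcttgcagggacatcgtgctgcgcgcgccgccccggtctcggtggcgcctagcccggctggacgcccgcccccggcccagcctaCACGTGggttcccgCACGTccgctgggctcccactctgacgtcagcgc
Tpi1, chr6:124814159-124814408, minus strand: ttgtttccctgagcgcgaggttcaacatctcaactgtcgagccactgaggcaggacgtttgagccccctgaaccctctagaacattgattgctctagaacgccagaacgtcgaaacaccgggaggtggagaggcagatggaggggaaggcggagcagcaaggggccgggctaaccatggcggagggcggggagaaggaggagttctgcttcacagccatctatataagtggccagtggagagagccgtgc
Eno3, chr11:70656926-70657175, plus strand: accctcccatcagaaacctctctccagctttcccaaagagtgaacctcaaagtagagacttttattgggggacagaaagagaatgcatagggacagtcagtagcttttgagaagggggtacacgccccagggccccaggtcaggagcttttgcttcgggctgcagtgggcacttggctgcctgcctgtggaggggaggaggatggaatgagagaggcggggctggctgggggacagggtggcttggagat
Pdk1, chr2:71872974-71873223, plus strand: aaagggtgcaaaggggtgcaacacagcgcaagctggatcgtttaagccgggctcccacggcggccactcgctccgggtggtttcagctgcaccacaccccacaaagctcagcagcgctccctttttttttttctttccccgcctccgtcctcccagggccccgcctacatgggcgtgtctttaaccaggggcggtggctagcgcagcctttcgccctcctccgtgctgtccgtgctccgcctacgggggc
The Ldha window held 5 matches, counting 2 CACGTG as a match on each strand, and the Hk2 window held 2. The Tpi1, Eno3 and Pdk1 windows held no ACGTG on either strand, which leaves other forms of the core unread. A window was listed for 28 of the 29 measured members, Pdp1 being the exception. Of these 28 genes, 11 (39.3%) had a match in at least 1 of their windows, against 18.5% of 27025 genes. Over windows the share was 31.7% of 41 for the members and 16.6% of 32851 for all genes. The full CACGTG was in 9.76% of the members' windows and 6.02% of all windows. These matches are letters in a window, and nothing here measured binding.

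Values are log2 expression values, so a difference of 1 is a 2-fold change. A gene is said to have risen or fallen when its adjusted p was under 0.05 in limma, with Benjamini-Hochberg adjustment over the 8139 genes. Values under about 5 lie near background, since on the array's 23 nonspecific control probe sets the median was 2.60 and the maximum 4.71. Fold changes that involve such values may understate the true change, which was not measured here. In sorted bulk cells, fewer cells of a type and less RNA per cell cannot be told apart. Levels are compared within a probe set and never between genes.

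In WT mice, 11 of the 27 tested members differed between Tregs and Tconv, 8 higher and 3 lower in Tregs, and in KI mice 16 did, 11 higher and 5 lower. The share of all tested genes called was 34.6% in WT and 41.1% in KI, so the members' 40.7% and 59.3% are read against those shares. The members' median difference was 0.05 in WT, where that of all genes was -0.03, and 0.21 in KI, where it was -0.02. All 11 members called in WT were called in KI in the same direction, which is 100% of the WT calls and 68.8% of the KI calls. For all genes those shares were 82.0% and 69.1%. By direction, 16.7% of all tested genes were higher and 17.9% lower in WT Tregs, and 21.2% were higher and 19.9% lower in KI Tregs. The Treg and Tconv arrays did not overlap for 11 members in WT, where 37.2% of all genes showed no overlap, and for 14 in KI, where 34.7% did. The 27 include Hk2, which passed the filter through 7 Treg arrays alone. A stricter filter, log2 above 6 on at least 4 arrays, left Hk2 out, and 10 of 26 members passed in WT and 15 in KI.

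**Figure D1:**
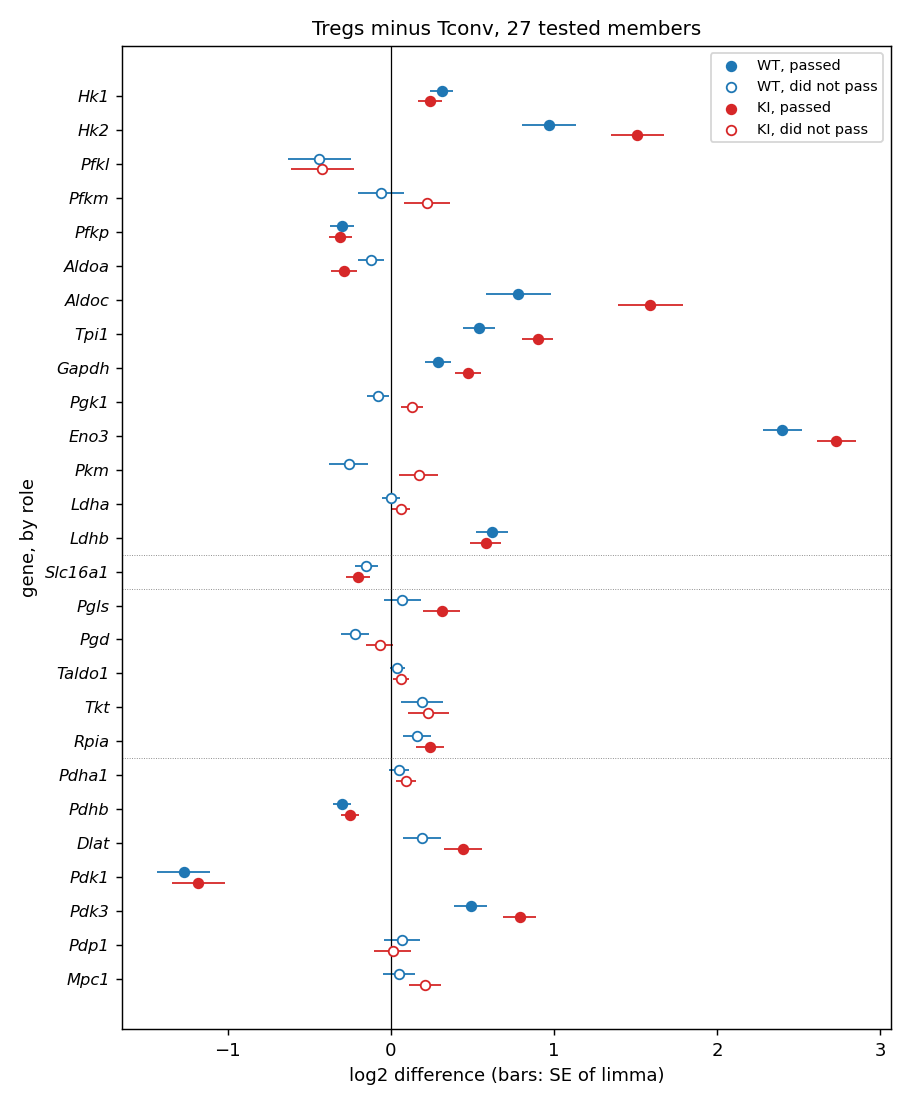
Difference between Tregs and Tconv (log2, horizontal axis) for the 27 tested members, ordered by role, in WT (blue) and KI (red). Bars are the standard errors of limma, and filled points passed at an adjusted p under 0.05. Eno3 lies farthest to the right (2.40 and 2.73) and Pdk1 farthest to the left (-1.27 and -1.18), and most other members lie between -0.5 and 1.

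Glycolysis, with 14 of the 27 tested members, held 7 of the 8 rises in WT and 7 of the 11 in KI. Of its 14 tested enzymes, 7 rose and 1 fell in WT Tregs, and 7 rose and 2 fell in KI Tregs. Of all tested genes, 16.7% rose and 17.9% fell in WT, and 21.2% rose and 19.9% fell in KI. The 7 include Hk2, which passed the filter through Treg arrays alone. Hk1, Hk2, Aldoc, Tpi1, Gapdh, Eno3 and Ldhb rose in both genotypes. Pfkp, a form of the committed-step enzyme phosphofructokinase, fell in both.

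Hexokinases trap glucose in the cell as glucose 6-phosphate, and Hk2 is the inducible form. Hk2 was at 5.23, 5.21, 4.87 and 5.32 on the WT Treg arrays and at 4.28, 3.80, 4.26 and 4.41 in WT Tconv. In KI it was at 5.45, 5.98, 5.71 and 5.45 in Tregs and at 4.15, 4.20, 4.26 and 3.92 in Tconv. Every Treg array was above every Tconv array, and all Tconv arrays were near background. The difference was 0.97 in WT and 1.51 in KI (SE 0.156, n = 4 arrays a group), a 1.96-fold and a 2.86-fold change that background may make too small. Since the filter selected Hk2 for its Treg values, its test is given from the fit with no filter, over 17097 genes, where adjusted p = 9.84e-05 and 2.18e-07. Hk1, the constitutive form, rose less, by 0.31 (adjusted p = 0.00275) and 0.24 (adjusted p = 0.0121), without overlap between the groups.

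Phosphofructokinase, the main point of control of the pathway, moved the other way or not detectably. Pfkp was at 9.63, 9.53, 9.81 and 9.65 in WT Tregs and at 9.93, 10.07, 10.02 and 9.79 in WT Tconv. It fell by 0.30 in WT (SE 0.0706, adjusted p = 0.00300), where 1 Tconv array lay below the highest Treg array, and by 0.31 in KI (adjusted p = 0.00161), where the groups did not overlap. Pfkl, the liver form, stood at -0.44 (SE 0.194, adjusted p = 0.0904) and -0.42 (adjusted p = 0.0957), and passed when replicate 2 of the KI Tregs was left out, at -0.44 (adjusted p = 0.0313) and -0.63 (adjusted p = 0.00532). Without replicate 4 of the KI Tconv it also passed in KI, at -0.53 (adjusted p = 0.0441). The other tested probe set of Pfkl, itself near background, gave -0.08 and 0.01. Pfkm, the muscle form, gave -0.06 and 0.22 and did not pass.

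Aldolase splits the 6-carbon sugar, and in KI its measured forms went in different directions. Aldoc, best known from brain, was at 5.69, 5.64, 5.53 and 5.95 in WT Tregs and at 6.55, 7.08, 6.28 and 6.34 in KI Tregs. In Tconv it was at 4.97, 5.01, 4.57 and 5.10 in WT and at 5.07, 4.88, 4.47 and 5.45 in KI, close to background. All Treg arrays were above all Tconv arrays, and the KI Tregs were above the WT Tregs. The rise was 0.78 (SE 0.200, adjusted p = 0.00503) in WT and 1.59 (SE 0.200, adjusted p = 3.67e-06) in KI. Aldoa, the widely expressed form, differed by -0.12 (adjusted p = 0.290) in WT and fell by 0.29 (SE 0.0802, adjusted p = 0.00739) in KI. Its other tested probe sets gave -0.19 (adjusted p = 0.152), -0.29 (adjusted p = 0.0448) and -0.31 (adjusted p = 0.018) in KI, so the first did not pass. In WT they gave -0.04, -0.12 and -0.24, and none passed.

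Triosephosphate isomerase and glyceraldehyde 3-phosphate dehydrogenase follow aldolase. Tpi1 was at 8.08, 8.41, 8.10 and 7.94 in WT Tregs against 7.75, 7.54, 7.61 and 7.47 in WT Tconv, a rise of 0.54 (SE 0.0957, adjusted p = 2.24e-04). In KI it was at 8.59, 8.64, 8.62 and 8.36 against 7.69, 7.61, 7.59 and 7.74, a rise of 0.90 (SE 0.0957, adjusted p = 4.89e-07). Neither genotype showed overlap between the cell types. Gapdh, often used as a reference gene, rose by 0.29 (SE 0.0790, adjusted p = 0.00886) in WT and 0.47 (adjusted p = 1.16e-04) in KI, again without overlap. The control probe set at the 3′ end of Gapdh averaged 10.95 and 10.65 in WT Tregs and Tconv, and 11.17 and 10.68 in KI. Its excess over the 5′ end, which grows as RNA degrades, averaged 0.36, 0.46, 0.36 and 0.36 in these 4 groups, and the part of RNA quality in the Gapdh difference was not tested. Pgk1, the next enzyme and the first to make ATP, gave -0.08 and 0.13 and did not pass, although in KI it passed without replicate 4 of the Tconv, at 0.19 (adjusted p = 0.0157).

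Eno3 had the largest difference of the members in both genotypes. It encodes the beta form of enolase, best known from skeletal muscle. Eno3 was at 9.20, 9.19, 9.10 and 8.75 in WT Tregs and at 6.51, 6.63, 6.88 and 6.61 in WT Tconv. In KI it was at 9.52, 9.48, 9.40 and 9.12 in Tregs and at 6.85, 6.72, 6.51 and 6.5 in Tconv. The cell types were far apart, with the lowest Treg array at 8.75 and the highest Tconv array at 6.88. The rise was 2.40 (SE 0.118, adjusted p = 1.93e-11), or 5.28-fold, in WT and 2.73 (SE 0.118, adjusted p = 2.19e-12), or 6.66-fold, in KI. Leaving out any single array gave 2.35 to 2.5 in WT. Eno1, the widely expressed enolase, is among the members not analysed here, so the sum of enolase cannot be read.

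**Figure D2:**
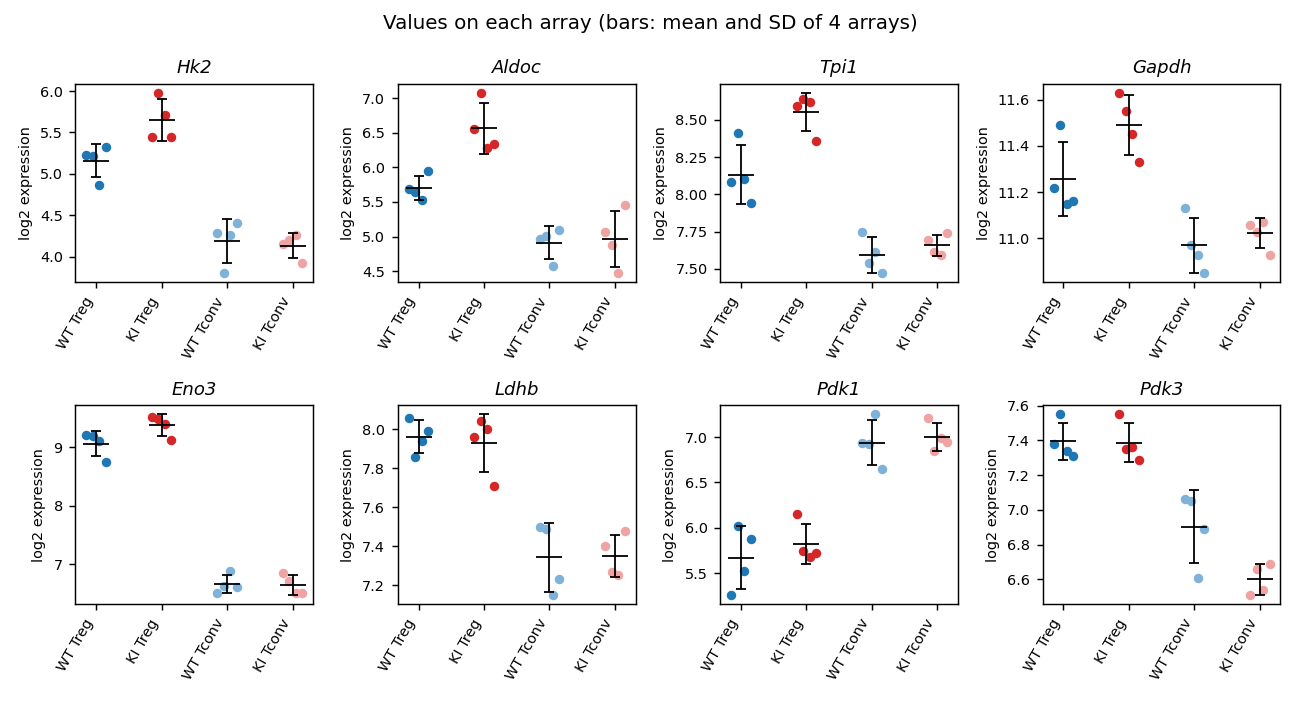
Log2 expression of 8 members on each array, with the mean and SD of the 4 arrays of a group as black bars. Vertical axes differ and do not start at 0. Hk2, Aldoc, Tpi1, Gapdh, Eno3, Ldhb and Pdk3 are higher on the Treg arrays and Pdk1 is lower, and for these 8 no Treg array overlaps a Tconv array of its genotype.

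The last steps did not move together. Pkm, pyruvate kinase of muscle and proliferating cells, was at 8.58, 8.43, 8.61 and 8.55 in WT Tregs and at 8.82, 8.82, 8.98 and 8.58 in WT Tconv, a difference of -0.26 (SE 0.119, adjusted p = 0.104). In KI it was at 9.21, 9.16, 9.01 and 8.69 in Tregs and at 8.87, 9.07, 8.92 and 8.54 in Tconv, a difference of 0.17 (adjusted p = 0.271). The cell types overlapped in both genotypes, with opposite signs, and in WT the difference passed without replicate 4 of the Tconv, at -0.33 (adjusted p = 0.0483). Lactate dehydrogenase turns pyruvate into lactate and back. Ldha, the subunit that favours lactate, was nearly level, at 11.20 to 11.26 in WT Tregs and 11.17 to 11.26 in WT Tconv, with differences of 0.00 (SE 0.0573, adjusted p = 0.985) in WT and 0.06 (adjusted p = 0.467) in KI. Ldhb, the subunit that favours pyruvate, was at 8.06, 7.86, 7.94 and 7.99 in WT Tregs against 7.50, 7.49, 7.15 and 7.23 in WT Tconv. It rose by 0.62 (SE 0.0968, adjusted p = 5.90e-05) in WT and 0.58 (SE 0.0968, adjusted p = 9.73e-05) in KI without overlap. Slc16a1, which carries lactate and pyruvate across the plasma membrane, differed by -0.15 (adjusted p = 0.126) in WT and fell by 0.20 (SE 0.0729, adjusted p = 0.0377) in KI. That KI call was lost without replicate 1 of the Tregs (-0.15, adjusted p = 0.140), replicate 3 of the Tregs (-0.21, adjusted p = 0.0510), or replicate 1 (-0.20, adjusted p = 0.0555), 3 (-0.18, adjusted p = 0.0878) or 4 (-0.17, adjusted p = 0.0901) of the Tconv.

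In the pentose phosphate pathway none of the 5 tested enzymes passed in WT in limma on its representative probe set, with differences from -0.22 to 0.19 and 1, Pgd, at an unadjusted p under 0.05, and 2 rose in KI. The rate-limiting first enzyme, G6pdx, was not analysed here. Pgls, the lactonase of the second step, was at 8.34, 8.42, 7.93 and 7.99 in KI Tregs and at 7.90, 7.58, 7.90 and 8.09 in KI Tconv, so the groups overlapped. It rose by 0.31 (SE 0.115, adjusted p = 0.0404), while WT gave 0.07 (adjusted p = 0.673). Rpia, the isomerase that makes ribose 5-phosphate, was at 8.02, 8.08, 7.81 and 7.86 against 7.65, 7.63, 7.66 and 7.86, with 1 Tconv array level with a Treg array. It rose by 0.24 (SE 0.0860, adjusted p = 0.0306) in KI, while WT gave 0.16 (adjusted p = 0.164). Both KI calls were weak. Without replicates 1 or 2 of the KI Tregs, or 1, 2 or 3 of the KI Tconv, Pgls gave 0.25, 0.22, 0.32, 0.21 and 0.32 and Rpia gave 0.22, 0.20, 0.23, 0.22 and 0.23, with adjusted p from 0.0586 to 0.156. Pgd, which makes the second NADPH, differed by -0.22 (SE 0.0835, adjusted p = 0.0516) in WT and -0.07 in KI. Its other tested probe sets gave -0.27 (adjusted p = 0.0156), which passed, and -0.21 (adjusted p = 0.0953) in WT, and -0.05 and 0.01 in KI. The WT difference passed at -0.26 without replicate 1 of the WT Tregs (adjusted p = 0.0337) or of the WT Tconv (adjusted p = 0.0363), and at -0.22 without replicate 2 or 4 of the KI Tregs (adjusted p = 0.0268 and 0.0449). Taldo1 and Tkt, which shuttle sugars back to glycolysis, gave 0.04 and 0.19 in WT and 0.06 and 0.23 in KI and did not pass.

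Among the genes of pyruvate entry and oxidation, the pyruvate dehydrogenase kinases showed the largest differences, and they went in opposite directions. These kinases phosphorylate and switch off pyruvate dehydrogenase, and Pdk1 is a known HIF target. Pdk1 was at 5.26, 6.02, 5.52 and 5.88 in WT Tregs and at 6.94, 6.92, 7.25 and 6.65 in WT Tconv. In KI it was at 6.15, 5.74, 5.68 and 5.72 in Tregs and at 7.21, 6.85, 6.99 and 6.95 in Tconv. Every Treg array was below every Tconv array. Pdk1 fell by 1.27 (SE 0.162, adjusted p = 5.89e-06) in WT and by 1.18 (SE 0.162, adjusted p = 1.12e-05) in KI, a 2.41-fold and a 2.26-fold lower level. Its other tested probe sets gave -1.47 and -0.85 in WT and -1.39 and -1.05 in KI. Pdk3 was at 7.38, 7.55, 7.34 and 7.31 in WT Tregs against 7.06, 7.05, 6.61 and 6.89 in WT Tconv, and at 7.55, 7.35, 7.36 and 7.29 in KI Tregs against 6.51, 6.66, 6.54 and 6.69 in KI Tconv. It rose by 0.49 (SE 0.101, adjusted p = 8.85e-04) in WT and 0.79 (SE 0.101, adjusted p = 4.83e-06) in KI, with no overlap.

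Of the pyruvate dehydrogenase complex itself, Pdhb, the beta subunit of the first enzyme, was at 9.63, 9.65, 9.66 and 9.62 in WT Tregs against 10.04, 9.97, 9.87 and 9.87 in WT Tconv. It fell by 0.30 (SE 0.0570, adjusted p = 4.45e-04) in WT and by 0.25 (adjusted p = 0.00173) in KI, with no overlap. Pdha1, the alpha subunit that the kinases phosphorylate, gave 0.05 and 0.09 and did not pass. Dlat, the acetyltransferase core, gave 0.19 (adjusted p = 0.235) in WT and rose by 0.44 (SE 0.117, adjusted p = 0.00549) in KI, and its other tested probe sets disagreed. The first gave 0.24 (adjusted p = 0.0583) in WT and rose by 0.42 (adjusted p = 0.00145) in KI, and the second gave 0.00 and 0.03. Pdp1, a phosphatase that reverses the kinases, gave 0.07 and 0.01. Mpc1, a subunit of the mitochondrial pyruvate carrier, gave 0.05 and 0.21 (adjusted p = 0.761 and 0.101), and in KI it passed without replicate 4 of the Tregs, at 0.27 (adjusted p = 0.0379).

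Of the 29 measured members, 10 had further probe sets that passed the filter, 15 in all. Their difference had the sign of the representative probe set for 14 of 15 in WT and 13 of 15 in KI. The annotated names of the probe sets of Aldoa, Tpi1, Pgd and Tkt carry the manufacturer's mark for probes that may also bind other transcripts, and that of Gapdh the mark for probes shared by several transcripts.

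The comparison of the genotypes gave 3 calls in Tregs and none in Tconv. In Tregs 3 of the 27 tested members, Aldoc, Tpi1 and Pkm, were higher in KI than in WT and none was lower, where 2.84% of all tested genes differed, 1.99% higher and 0.848% lower. All 3 are glycolysis enzymes. The members' median was 0.15, with 20 of 27 above 0, against 0.04 for all genes, with 4906 of 8139 above 0. At an unadjusted p under 0.05, 11 members were higher in KI and none lower. The share of all genes at that cut-off is not given here, so this count cannot be set against it. In either direction, 11 of 14 cell cycle genes and 7 of 16 TCA cycle genes were under that cut-off. So were 5 of 18 genes of glucose uptake and control of flux, 5 of 22 regulators and other HIF targets, and 2 of 11 genes of the nucleotide sugar and NADPH branch. The arrays of the genotypes did not overlap for Hk2, Aldoc, Pgk1 and Pkm, while 8.12% of all genes showed no overlap.

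Aldoc was higher in KI Tregs by 0.86 (SE 0.200, adjusted p = 0.0267), 1.82-fold, the lowest KI array lying at 6.28 and the highest WT array at 5.95. Tpi1 was higher by 0.42 (SE 0.0957, adjusted p = 0.0234), 1.34-fold, with replicate 2 of WT at 8.41 above replicate 4 of KI at 8.36. Its other tested probe set gave 0.48 (adjusted p = 0.0153). Pkm was higher by 0.48 (SE 0.119, adjusted p = 0.0358), 1.39-fold, its lowest KI array at 8.69 and its highest WT array at 8.61. These are the enzymes of the fourth, the fifth and the last step of glycolysis. Hk2, at the first step, stood at 0.49 in the fit with no filter (SE 0.156, adjusted p = 0.157). Eno3 stood at 0.32 (adjusted p = 0.170), Gapdh at 0.23 (adjusted p = 0.131), Mpc1 at 0.30 (adjusted p = 0.121) and Taldo1 at 0.15 (adjusted p = 0.119), and none of the 5 passed. Ldha gave -0.01, Ldhb -0.03, Pdk1 0.15 and Pdk3 -0.01.

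**Figure D3:**
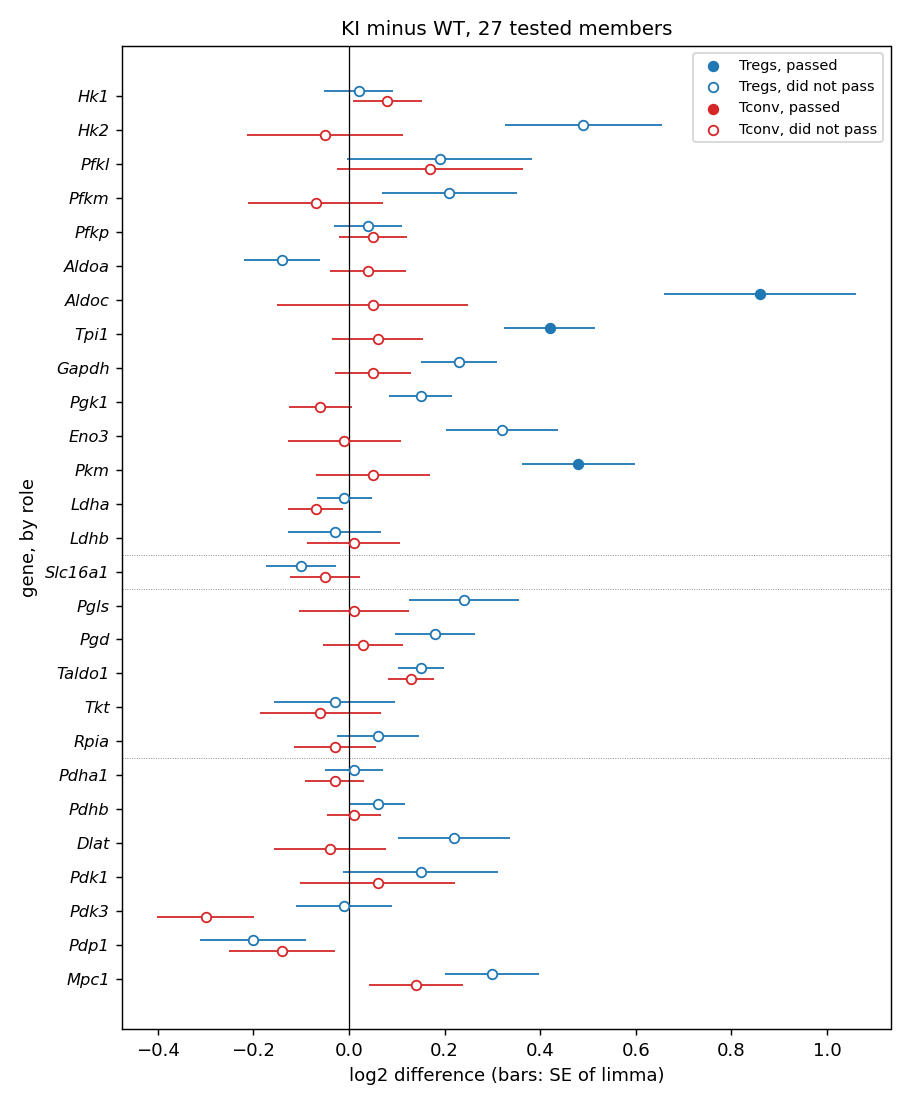
Difference between KI and WT (log2, horizontal axis) in Tregs (blue) and Tconv (red) for the 27 tested members, ordered by role. Bars are the standard errors of limma, and filled points passed at an adjusted p under 0.05. Only Aldoc (0.86), Tpi1 (0.42) and Pkm (0.48) passed, all in Tregs, and the Tconv points lie between -0.30 and 0.17.

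The genotype calls rested on few arrays. The titles number the arrays: 4 to 9 are all WT, 13 to 23 all KI, and 24 to 27 hold 1 array of each group, which are the replicates 4. The labels do not say what the numbers stand for. Among the arrays numbered 24 to 27, KI minus WT in Tregs was 0.42 for Tpi1, 0.39 for Aldoc, 0.15 for Pkm and 0.13 for Hk2, with no test possible. With the 3 ranges of numbers as a block, Tpi1 gave 0.52 (adjusted p = 0.141), Aldoc 0.78 (adjusted p = 0.505), Pkm 0.27 (adjusted p = 0.602) and Hk2 0.09 (adjusted p = 0.979), and no member passed. In that fit the overall difference between the genotypes comes from the arrays 24 to 27, and the Treg minus Tconv differences within the other ranges enter too. With these arrays left out, the 3 genes passed at 0.42, 1.02 and 0.59 for Tpi1, Aldoc and Pkm. Apart from these arrays, genotype and array number cannot be told apart.

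**Figure D4:**
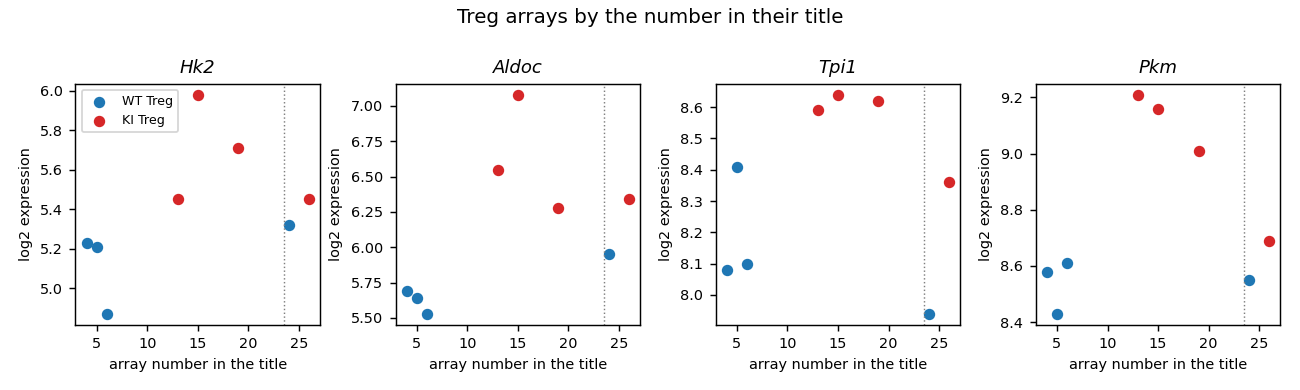
Log2 expression of Hk2, Aldoc, Tpi1 and Pkm on the 8 Treg arrays against the number in the array's title, WT in blue and KI in red. Vertical axes differ and do not start at 0, and the dotted line sets off the arrays 24 to 27, which hold 1 WT and 1 KI Treg array. There the KI array is above the WT array for all 4 genes, by 0.13 (Hk2) to 0.42 (Tpi1).

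Single arrays also decided these calls. Aldoc was lost without replicate 1 (0.86, adjusted p = 0.0735), 2 (0.84, 0.0518) or 3 (0.80, 0.0892) of the WT Tregs and without replicate 1 (0.86, 0.0767) or 2 (0.69, 0.1) of the KI Tregs. Tpi1 was lost without replicate 1 (0.40, adjusted p = 0.0793), 3 (0.41, 0.0704) or 4 (0.36, 0.0846) of the WT Tregs and without replicate 1 (0.41, 0.0831), 2 (0.39, 0.0811) or 3 (0.40, 0.0636) of the KI Tregs. Pkm was lost without any of replicates 1 to 4 of the WT Tregs (0.49, 0.44, 0.50 and 0.48, adjusted p from 0.0740 to 0.0891) and without replicate 1 (0.41, 0.142), 2 (0.43, 0.129) or 3 (0.48, 0.0691) of the KI Tregs. The sizes moved little while the calls went. Without replicate 4 of the KI Tregs, 6 members passed, with Eno3 at 0.41 (adjusted p = 0.0482), Gapdh at 0.29 (adjusted p = 0.0437) and Mpc1 at 0.37 (adjusted p = 0.0393) added. Gapdh also passed without replicate 2 of the WT Tregs, at 0.31 (adjusted p = 0.0268). Among the other settings, Tpi1 was lost when only the 2 Treg groups were fitted (adjusted p = 0.0689). Pkm was lost with no trend on the variance (adjusted p = 0.0533) and with arrays shifted to a common median over the gene probe sets (0.41, adjusted p = 0.0925).

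In Tconv no member passed between the genotypes in limma, where 0.135% of all tested genes did, all lower in KI. At an unadjusted p under 0.05 there were 2, Pdk3 and Taldo1, with no share of all genes at that cut-off to set beside them. The members' differences ran from -0.30 for Pdk3 (SE 0.101, adjusted p = 0.601) to 0.17 for Pfkl, with a median of 0.01, the same as for all genes. Taldo1 was the only member whose arrays did not overlap, at 10.15 to 10.18 in WT and 10.27 to 10.32 in KI (0.13, adjusted p = 0.733), against 3.74% of all genes. Of the 10 genes of the Treg and CD4 T cell identity list, 2 were lower in KI Tconv, Foxp3 and Ikzf2. Foxp3, near background in Tconv, gave -0.93 in the limma fit with no filter (adjusted p = 0.0119). Ikzf2 gave -0.88 to -0.77 in the fits without 1 array. Their bearing on the Treg minus Tconv differences was not tested.

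The difference between Tregs and Tconv was then compared between the genotypes with an interaction term. No member passed in limma, where 0.786% of all tested genes did, 0.663% with a higher and 0.123% with a lower term in KI. At an unadjusted p under 0.05 there were 5, Aldoc, Hk2, Pgk1, Pkm and Tpi1, all above 0. The share of all genes at that cut-off is not given here. Terms above 0 were found for 21 of 27 members and 4562 of 8139 genes. They were found for 13 of 14 cell cycle genes, 16 of 16 TCA cycle genes and 9 of 18 genes of glucose uptake and control of flux. The members' largest terms were Aldoc at 0.81 (SE 0.282, adjusted p = 0.345) and Hk2 at 0.55 (adjusted p = 0.507 in the fit with no filter). Pkm followed at 0.43 (SE 0.168, adjusted p = 0.442) and Tpi1 at 0.36 (SE 0.135, adjusted p = 0.413). All of these were toward a larger Treg excess in KI. So the 5 members called in KI and not in WT, namely Aldoa, Slc16a1, Pgls, Rpia and Dlat, are not shown to differ between the genotypes.

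The genes around the pathway gave the following. Of the 18 tested genes of glucose uptake and control of flux, 5 rose and 3 fell in WT Tregs and 4 rose and 3 fell in KI Tregs. The shares called were 44.4% in WT and 38.9% in KI, against 34.6% and 41.1% of all tested genes. Slc2a3, a high-affinity glucose transporter, was at 10.72, 10.74, 10.72 and 10.55 in WT Tregs and at 9.44, 9.36, 9.24 and 9.17 in WT Tconv, a rise of 1.38 (SE 0.0630, adjusted p = 7.41e-12). It rose by 1.75 in KI (adjusted p = 1.84e-13), with no overlap in either genotype. Slc2a1, the transporter induced on T cell activation, gave 0.05 (adjusted p = 0.660) in WT and rose by 0.29 (adjusted p = 0.00609) in KI. Gpd2, the mitochondrial glycerol 3-phosphate dehydrogenase that hands cytosolic electrons to the respiratory chain, fell by 1.01 (adjusted p = 3.80e-07) and 1.35 (adjusted p = 6.13e-09). Pfkfb4, which sets an activator of phosphofructokinase, fell by 0.82 (adjusted p = 0.00155) and 0.80 (adjusted p = 0.00168), and Pck2, which makes phosphoenolpyruvate in mitochondria, rose by 0.56 (adjusted p = 2.01e-04) and 0.52 (adjusted p = 3.33e-04).

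Among 7 tested isoforms and partner subunits of the member enzymes, 2 rose and 1 fell in each genotype. The share called was 42.9% in each, against 34.6% of all tested genes in WT and 41.1% in KI. Tktl1, a transketolase-like gene, was at 6.51, 6.59, 6.49 and 6.68 in WT Tregs and at 4.37, 4.21, 4.19 and 4.41 in WT Tconv, near background in the latter. Only its 8 Treg arrays were above the filter's 5, so its test too is from the fit with no filter, where it rose by 2.27 (adjusted p = 3.55e-08) in WT and 3.25 (adjusted p = 1.05e-10) in KI. The member Tkt did not pass. Bsg, the chaperone of the monocarboxylate transporters, rose by 0.38 (adjusted p = 0.00476) and 0.52 (adjusted p = 2.42e-04). Of 11 tested genes of the nucleotide sugar and NADPH branch, 2 rose and 3 fell in each genotype, or 45.5% called. Idh2, a mitochondrial source of NADPH, fell by 0.96 (adjusted p = 1.80e-07) and 0.79 (adjusted p = 1.72e-06), and Gsr, which spends NADPH to recycle glutathione, rose by 0.70 (adjusted p = 1.24e-04) and 0.51 (adjusted p = 0.00180). Of 16 tested TCA cycle genes, 0 rose and 1 fell in WT and 5 rose and 1 fell in KI, or 6.25% and 37.5% called. Suclg1, a subunit of succinyl-CoA ligase, was the one that fell in WT (by 0.23, adjusted p = 0.0127), a call lost without replicate 2 of the WT Tconv (-0.19, adjusted p = 0.0513). Of the rises in KI, that of Sdhb, a subunit of succinate dehydrogenase, was 0.21 (adjusted p = 0.0455) and was lost without any 1 of 12 arrays, all but replicate 3 of the WT Tregs, replicate 1 of the WT Tconv and replicates 3 and 4 of the KI Tregs (0.13 to 0.28 over the 16 settings). That of Idh3g, a subunit of isocitrate dehydrogenase, was 0.18 (adjusted p = 0.0391). It was lost without replicate 1 or 2 of the KI Tregs (0.16 and 0.16) or replicate 2, 3 or 4 of the KI Tconv (0.17, 0.15 and 0.18).

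Of 22 tested regulators and other HIF targets, 5 rose and 4 fell in WT Tregs, and 6 rose and 4 fell in KI Tregs. The shares called were 40.9% and 45.5%, near the 34.6% and 41.1% of all tested genes, and the falls include Epas1. Hif1a and Epas1, which encode the oxygen-sensitive subunits HIF-1α and HIF-2α, went in opposite directions. Epas1 was at 3.65 to 3.87 in WT Tregs, at background, and at 6.60 to 6.91 in WT Tconv. Only its 8 Tconv arrays were above the filter's 5, and in the fit with no filter it fell by 3.01 (adjusted p = 5.57e-12) in WT and by 3.34 (adjusted p = 7.35e-13) in KI. Hif1a was at 10.90, 11.03, 10.90 and 10.86 in WT Tregs and 10.19, 10.26, 10.28 and 10.20 in WT Tconv, a rise of 0.69 (SE 0.0621, adjusted p = 6.68e-08), with 1.08 (adjusted p = 1.03e-10) in KI. Ndrg1, a hypoxia-induced gene, rose by 0.82 (adjusted p = 1.37e-05) and 1.33 (adjusted p = 2.18e-08), and Rictor, the defining subunit of mTORC2, fell by 0.68 (adjusted p = 6.45e-07) and 0.55 (adjusted p = 7.29e-06). Egln3 and Mxi1, of the same list, also rose in both genotypes. In the fits without 1 array, Egln3 gave 0.41 to 0.71 in WT and 2.24 to 2.45 in KI. Mxi1 gave 0.26 to 0.33 in WT and 0.67 to 0.8 in KI. In WT the Egln3 call was lost in 4 of the 16 fits and the Mxi1 call in 2. Pdk1, also a known HIF target, fell in both genotypes, as given above.

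Between the genotypes in Tregs, 2 of the glucose uptake genes, 1 TCA cycle gene and 2 of the regulators and HIF targets were higher in KI. None of these lists had a lower gene. Of all tested genes, 1.99% were higher and 0.848% lower, so the lack of a lower gene in lists this short says little. Egln3, a HIF-induced prolyl hydroxylase that marks HIF for degradation, was at 5.89, 5.47, 5.47 and 4.99 in WT Tregs and at 6.90, 7.26, 6.65 and 7.02 in KI Tregs, without overlap. It was higher by 1.5 (SE 0.184, adjusted p = 1.83e-04), and the interaction passed at 1.79 (SE 0.261, adjusted p = 0.00245). Hif1a was higher by 0.31 (SE 0.0621, adjusted p = 0.00949), Slc2a3 by 0.30 (SE 0.0630, adjusted p = 0.0144), Slc2a1 by 0.32 (SE 0.0781, adjusted p = 0.0313) and Mdh1, the cytosolic malate dehydrogenase, by 0.27 (SE 0.0657, adjusted p = 0.0334). Among the arrays 24 to 27 these were 2.03 for Egln3, 0.55 for Hif1a, 0.41 for Slc2a3, 0.19 for Slc2a1 and 0.23 for Mdh1. With the 3 ranges of numbers as a block, Egln3 (1.96, adjusted p = 0.00134), Hif1a (0.46, adjusted p = 0.0311) and Slc2a3 (0.44, adjusted p = 0.0308) passed, and Slc2a1 (0.16, adjusted p = 0.857) and Mdh1 (0.26, adjusted p = 0.515) did not. Slc2a3 was lost without replicate 4 of the WT Tregs (0.25, adjusted p = 0.0600) or replicate 1 of the KI Tregs (0.28, adjusted p = 0.0698). Slc2a1 was lost without replicates 1 or 3 of the WT Tregs (0.26 and 0.33) or 1 or 2 of the KI Tregs (0.31 and 0.31). Mdh1 was lost without replicates 1 or 3 of the WT Tregs (0.20 and 0.25) or 1, 2 or 3 of the KI Tregs (0.28, 0.29 and 0.26). When arrays were shifted to a common median over the gene probe sets, Hif1a (0.24, adjusted p = 0.170), Slc2a3 (0.23, adjusted p = 0.130), Slc2a1 (0.25, adjusted p = 0.105) and Mdh1 (0.20, adjusted p = 0.215) no longer passed. The Hif1a interaction of 0.39 (adjusted p = 0.0459) was lost without any of 11 arrays.

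**Figure D5:**
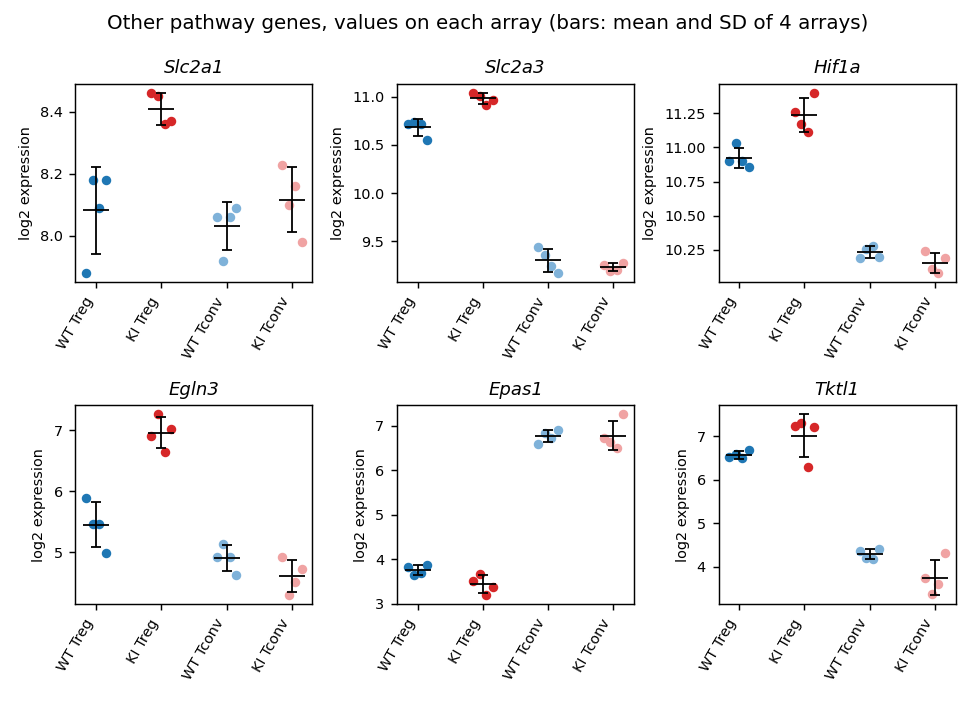
Log2 expression of 6 genes around the pathway on each array, with the mean and SD of the 4 arrays of a group as black bars. Vertical axes differ and do not start at 0. Slc2a3, Hif1a and Tktl1 are higher on all Treg arrays than on the Tconv arrays, Epas1 is lower, and Egln3 in KI Tregs (6.65 to 7.26) is above every other group.

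Other measures moved with the genotype contrast in Tregs and their part in it was not tested. The cell cycle list, over 17 genes, averaged 5.85 to 6.83 on the WT Treg arrays and 6.56 to 7.38 on the KI Treg arrays, and 5.48 to 6.22 and 5.48 to 6.01 in WT and KI Tconv. Of its 14 tested genes, 5 rose in WT Tregs over Tconv and 11 in KI, where 16.7% and 21.2% of all tested genes were higher. Both counts include Tk1, which was above the filter's 5 on 4 Treg arrays alone. In KI minus WT in Tregs, all 14 tested cell cycle genes were above 0, with a median of 0.84, and 11 had an unadjusted p under 0.05. In limma 2 of them (14.3%) passed, against 2.84% of all tested genes. Ccnb2, a mitotic cyclin, was higher in KI than WT Tregs by 2.06 (SE 0.346, adjusted p = 0.00273) and Cdc20, a mitotic activator, by 0.82 (adjusted p = 0.00853). The 14 measured glycolysis enzymes averaged 8.43 to 8.56 on the WT Treg arrays and 8.55 to 8.89 on the KI Treg arrays. The neutrophil marker list, over 7 genes, averaged 3.39 to 6.44 and 4.46 to 6.80 on the same arrays. Its 5 tested genes were all above 0 in KI minus WT, with a median of 0.84, and none passed in limma, nor at an unadjusted p under 0.05. The immediate early list, over 8 genes, averaged 8.27 to 8.78 on the WT Treg arrays and 8.18 to 9.55 on the KI Treg arrays. Of its 8 genes, 7 were above 0, with a median of 0.34 and a highest difference of 1.93, and 0 passed in limma, with 2 at an unadjusted p under 0.05. The B cell list averaged 4.39 to 5.77 and 4.37 to 5.47. In Treg minus Tconv, 1 of 3 tested B cell genes, 1 of 2 plasma cell genes and the 1 dendritic cell gene rose in each genotype. Of 2 tested monocyte genes, 0 rose in WT and 1, Cd68, in KI, and Cd68 was above 5 on 4 Treg arrays alone. The 5 neutrophil genes had medians of 0.13 in WT and 1.02 in KI, and none passed in limma. Of 3 tested NK cell genes, 1 rose and 1 fell in each genotype. Of all tested genes, 16.7% rose in WT and 21.2% in KI. Of the 2 CD8 T cell markers, Cd8a, above 5 on the 8 Treg arrays alone, was higher in Tregs than in Tconv by 2.35 in WT and 1.82 in KI, and Cd8b1 gave 0.08 and -0.26. Between the genotypes in Tregs, Cd8a gave -0.33 and Cd8b1 0.08. The part of other cell types in the Treg minus Tconv differences was not tested.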

How the data were processed

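Expression was measured on 16 Affymetrix arrays, 4 in each of 4 groups taken from the labels. The authors deposited log2 values per probe set, made with RMA in Partek 6.5 per the submitters' processing notes, and its options are not given in the sources used here. RMA corrects for background, quantile-normalizes the arrays and combines the probes of a set, so values near background are compressed. Array medians ran from 3.69 to 3.76, and the number of arrays limits the precision. Of 45141 probe sets, 28898 named 1 gene, 551 several and 15588 none, and 104 were controls. Symbols were updated by Entrez identifier for 28689 probe sets and by symbol for 152, and 57 kept the array's name. Each gene was represented by its probe set with the highest mean.

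Group means were fitted with limma 3.58.1 in R 4.3.3 (eBayes with a trend, Benjamini-Hochberg adjustment) over the 8139 genes above a log2 value of 5 on at least 4 arrays, with contrasts for cell type, genotype and their interaction. The fit was tested on simulated data. Named are the members and, of each other list, up to 4 genes with the lowest p in Treg minus Tconv in WT and up to 4 in KI minus WT in Tregs, with Foxp3 and Il2ra. The members and lists were chosen with earlier results of these data known. Replicate numbers follow the order of the samples and pair nothing. Alternatives changed the filter, the probe set, the scaling, the variance trend, the groups in the fit, the array-number block and single arrays.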

Additional observations from a re-analysis of the deposited data

Results flagged for a closer look

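Among 308 groups of 4 arrays checked for a value far from the other 3, 17 had one, and chance gives about 5%. For the members, the array far from the rest was replicate 4 of the KI Tregs for Pfkm (6.33, others 6.71 to 6.79) and Tpi1 (8.36, others 8.59 to 8.64), replicate 4 of the WT Tregs for Taldo1 (10.30, others 10.17 to 10.19), and replicate 4 of the KI Tconv for Rpia (7.86, others 7.63 to 7.66) and Mpc1 (9.44, others 9.21 to 9.24). Pdk1 stood apart on replicate 1 of the KI Tregs (6.15, others 5.68 to 5.74). Replicates 4 are the arrays numbered 24 to 27.

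Among the other genes, Tktl1 was low on replicate 3 of the KI Tregs (6.28, others 7.22 to 7.31). Slc2a3 was low on replicate 4 of the WT Tregs (10.55, others 10.72 to 10.74), as were Rbks (5.21, others 5.42 to 5.46) and Nr4a1 (8.99, others 9.17 to 9.20). Nadk was high on replicate 4 of the KI Tconv (8.80, others 8.53 to 8.56). Mdh2 was low on replicate 4 of the KI Tregs (11.91, others 11.97). On replicate 3 of the WT Tconv, Mxi1 (7.66, others 7.79 to 7.80) and Ikzf2 (8.91, others 9.06 and above) were low and Egr2 was high (7.50, others 7.32 to 7.35). Ctla4 was high on replicate 4 of the WT Tconv (6.81, others 6.45 to 6.49) and low on replicate 4 of the KI Tconv (5.67, others 6.52 to 6.68).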

How the results depend on the processing

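In Treg minus Tconv, the counts of members and genes stayed within 1.5 times under every alternative run. Leaving out 1 array gave 11 to 13 members and 2443 to 2977 genes in WT, and 13 to 17 members and 2890 to 3346 genes in KI. KI minus WT in Tregs was less stable: leaving out 1 array gave 0 to 6 members and 101 to 571 genes, the 3 ranges of array numbers as a block gave 0 members and 29 genes, and leaving out the arrays 24 to 27, chosen after seeing the data, gave 422 genes. In KI minus WT in Tconv, the count of 11 genes became 4 with the 2 groups alone, 5 with the 3-range block, 105 without the arrays 24 to 27 and 7 to 65 without 1 array, and the interaction's 64 became 37 to 104 without 1 array. Shifting arrays to 1 median turned the share of called genes that were higher in WT Tregs from 48.3% to 39.7%. Shifting over gene probe sets alone, also chosen after seeing the data, moved the median of all genes to -0.17 in WT and -0.22 in KI, and the higher share to 22.3%, 20.9% and, for KI minus WT in Tregs, 54.2%. It turned Treg minus Tconv in KI for Taldo1 (-0.14), Idh3a (-0.17), Mdh2 (-0.06) and Idh3g (-0.02), and ended the members' calls of Gapdh in WT (0.14), of Hk1 (0.04), Pgls (0.10), Rpia (0.04) and Dlat (0.24) in KI, and of Pkm (0.41) between genotypes. It added 6 members, all lower, in WT, namely Pfkl (-0.58), Aldoa (-0.26), Pgk1 (-0.22), Pkm (-0.40), Slc16a1 (-0.29) and Pgd (-0.36), and in KI Pfkl (-0.62) and Pgd (-0.27). With no filter or the 2 groups alone, Slc16a1, Pgls and Rpia lost their KI calls. Within the arrays 24 to 27, Pgls (-0.09), Rpia (0.00) and Sdhb (-0.01) did not keep their direction in KI. The cause was not tested. No paired analysis was possible because the labels give no shared replicate numbers. Signals near background limit Hk2, Aldoc and Epas1.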
